A study of Homo sapiens with 5 samples.

Results

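The pentose phosphate pathway and a small set of cytosolic dehydrogenases supply NADPH, the reducing cofactor used for lipid synthesis and for keeping glutathione and thioredoxin reduced. The oxidative branch of the pathway turns glucose 6-phosphate into ribulose 5-phosphate and releases NADPH. The non-oxidative branch interconverts sugar phosphates and links ribose supply to glycolysis. Malic enzyme and isocitrate dehydrogenase of the cytosol make NADPH from malate and isocitrate, and several enzymes of this set are known targets of the oxidative stress transcription factor NRF2. The set described here held 8 genes chosen by name: PGLS and PGD of the oxidative branch, RPIA, RPE, TKT and TALDO1 of the non-oxidative branch, and the dehydrogenases ME1 and IDH1. Of 22215 probe sets on the array, 11 name 1 of these genes alone and together cover 7 of them, and 2 more name a member along with another gene. PGD is represented only by a shared probe set, 201118_at, which the annotation gives to both UGDH and PGD.

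RNA was measured on Affymetrix arrays in LNCaP, an established androgen-responsive human prostate cancer cell line. Cells in RPMI with fetal bovine serum, near 50% confluency, received 1.25 µM celastrol, a triterpenoid from thunder god vine, or its solvent DMSO, for 6 h. There were 2 celastrol arrays and 3 DMSO arrays, which the titles number as biological replicates. No genotype, transgene or further agent is given for either group.

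The array labelled DMSO replicate 3 stood apart, with a Pearson correlation across probe sets of 0.843 to 0.844 with the others, which correlated with one another at 0.994 to 0.998. Each of the 8 measured luminal prostate markers stood more than 2-fold below its mean over the other 4. Their summed intensity was 185 there against 13336 to 14465, and that of 4 B lymphocyte markers was 2690 against 73 to 78. Other leukocyte markers summed to 353 there against 116 to 121, but only 1 of the 6, PTPRC, stood more than 2-fold above its mean over the other 4. Fibroblast markers summed to 103 against 119 to 126 and endothelial markers to 90 against 83 to 87. Celastrol was therefore compared with DMSO replicates 1 and 2, and DMSO replicate 3 is shown apart. Total intensity per array ranged from 4939397 to 5348496, and precision is limited by how few arrays there are.

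ME1 had the largest differences among the members, and the stretch before its start carries a match to the core of the antioxidant response element, the DNA motif bound by NRF2 with small MAF proteins. The 250 bases before the ME1 start are printed for that reason, in the 5′ to 3′ direction of the gene, from RefSeq on GRCh38.p14, chr6:83431052-83431301, minus strand. Capitals mark the match to TGACNNNGC.
ME1: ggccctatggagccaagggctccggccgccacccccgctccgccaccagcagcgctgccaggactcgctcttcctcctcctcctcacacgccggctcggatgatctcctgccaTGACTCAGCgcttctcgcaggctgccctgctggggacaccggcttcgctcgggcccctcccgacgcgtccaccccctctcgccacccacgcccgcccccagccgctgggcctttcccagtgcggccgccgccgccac

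This match begins 137 bases before the start, and its first letters also match TGACTCA, the site of AP-1 factors, so the motifs overlap there. Searched on both strands in the same 250-base windows, TGACNNNGC occurred in 4 of 9 windows of the members and in 10.9% of 35116 windows of all genes. A gene has a window for each start listed, and IDH1 has 2, of which 1 holds the match. TGACTCA occurred in 1 of 9 member windows and in 4.2% of all. The pair of heat shock element units GAANNTTC occurred in 0 of 9 and in 5.78% of all. The other 3 matches to TGACNNNGC were those of PGD, IDH1 and RPE, shown with the bases around them so that they can be set beside the ME1 match. The PGD match lies on the other strand, in chr1:10398853-10398881, and the windows of IDH1 and RPE are chr2:208255196-208255224 on the minus strand and chr2:210002477-210002505 on the plus strand.
ME1: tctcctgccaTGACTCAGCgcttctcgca
PGD: cctcgccgggGCAATGTCAtctaggtgct
IDH1: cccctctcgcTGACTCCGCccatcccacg
RPE: ggcggacggcTGACAGCGCcccaccccag

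The matches describe these letters only, and RPE and IDH1, which hold one, are among the members with the smallest differences described next.

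The design sets celastrol against its solvent at 6 h, which asks whether transcripts of these enzymes change. ME1 was about 2.2-fold to 2.4-fold higher with celastrol on both of its bright probe sets, and the probe set shared by UGDH and PGD was 1.41-fold higher. TKT stood 1.08-fold to 1.09-fold higher and TALDO1 1.10-fold higher. PGLS, RPE, RPIA and IDH1 had overlapping groups. By limma, with p adjusted over the whole array by Benjamini-Hochberg, 0 of the 11 member probe sets passed the threshold of 0.05, and 4 of them, 2 of ME1 and 2 of TKT, had an unadjusted p under 0.05, all on the higher side. Over the whole array 0.009% of probe sets passed the adjusted threshold in this fit, and 5.6% had an unadjusted p under 0.05 on the higher side and 7.59% on the lower side. Both celastrol arrays lay above both DMSO arrays for 5 of 11 member probe sets, against 14.5% of all probe sets. These were 2 of ME1, 2 of TKT and that of TALDO1, so probe sets of the same gene were counted more than once. Both celastrol arrays lay below both DMSO arrays for 0 of 11, against 17.6%. The median difference over the 11 was 0.05 on the log2(intensity + 1) scale, against 0.00 over all probe sets. As the array measures RNA of whole cultures, a change in which cells are present and a change in RNA per cell cannot be told apart.

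**Figure D1:**
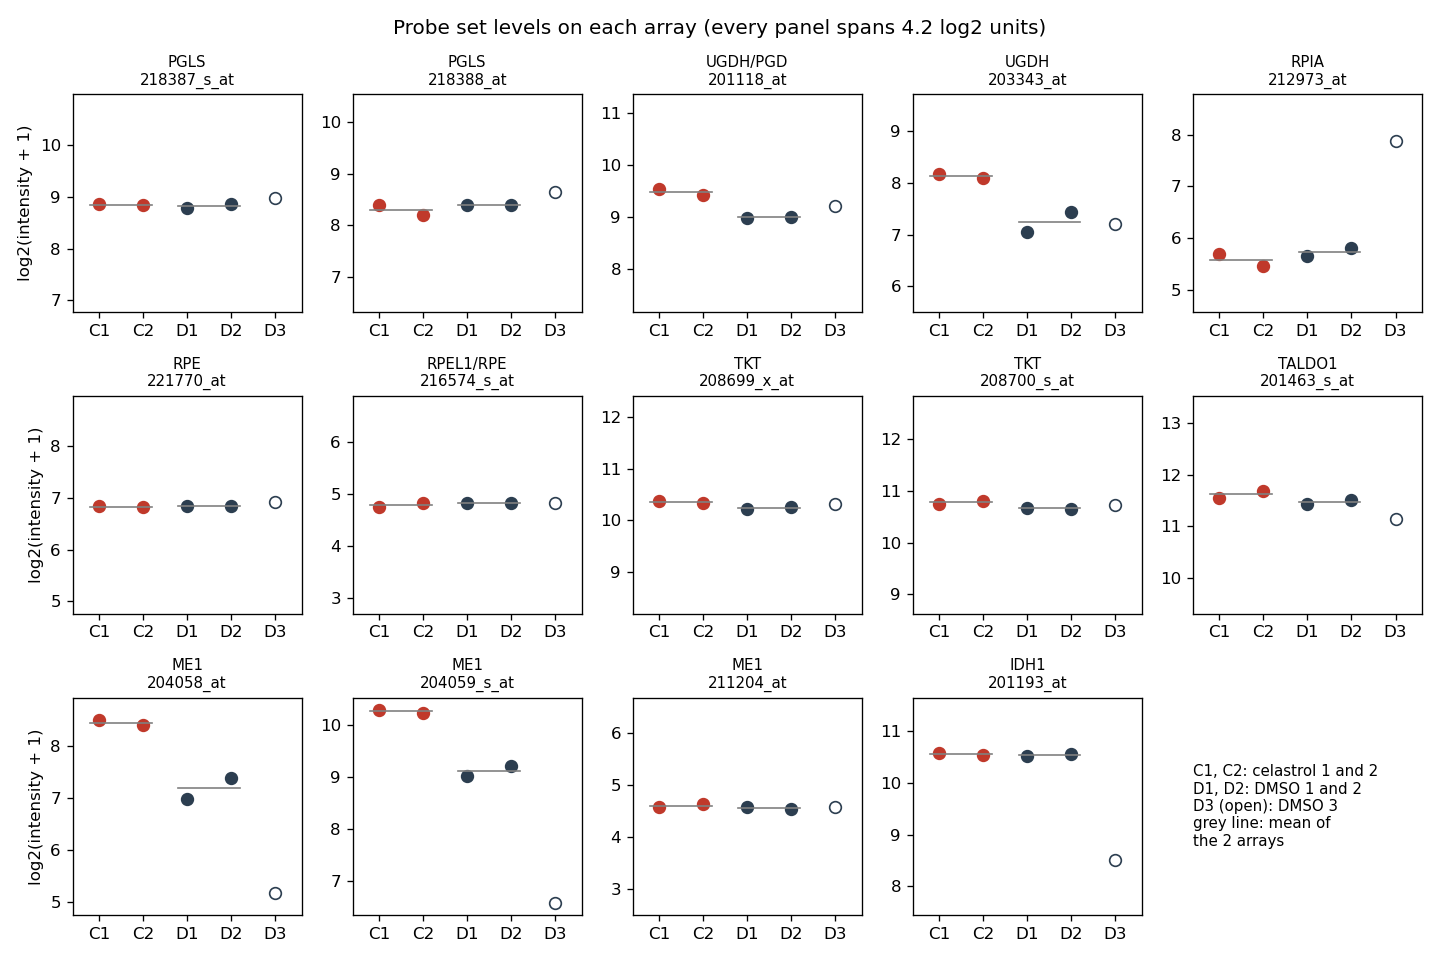
Level of each probe set, as log2(intensity + 1), on celastrol replicates 1 and 2 (C1, C2), DMSO replicates 1 and 2 (D1, D2) and DMSO replicate 3 (D3, open); grey lines are means of 2 arrays. Both bright ME1 probe sets sit above both DMSO arrays with celastrol, and DMSO replicate 3 is far lower for ME1 and IDH1 and far higher for RPIA.

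ME1, the cytosolic malic enzyme, turns malate into pyruvate and yields NADPH. On probe set 204059_s_at its intensity was 1253 and 1205 on the celastrol arrays and 517 and 593 on DMSO replicates 1 and 2. The groups were well separated, and the lower celastrol array was above the higher DMSO array by far more than either pair differed. The level was 10.3 ± 0.0404 (SD, n = 2) with celastrol and 9.12 ± 0.141 (SD, n = 2) with DMSO, a difference of 1.15 (SE 0.0872, 95% interval 0.87 to 1.43). That is 2.22-fold, and the limma adjusted p was 0.0981, with 226 probe sets of smaller p on the array. With quantile normalization of the arrays the limma adjusted p was 0.0310 and with median centring 0.0431. The probe set thus passed under these scalings and not on the deposited values. Its difference was 1.15 and 1.17 under them. Over the whole array 197 and 139 of 22215 probe sets passed under these scalings, against 2 on the deposited values.

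Probe set 204058_at of ME1 had an intensity of 362 and 338 with celastrol and of 125 and 167 with DMSO. Here too both celastrol arrays lay above both DMSO arrays, although the DMSO pair was further apart. The difference was 1.27 (SE 0.176, 95% interval 0.70 to 1.83), or 2.41-fold, with a limma adjusted p of 0.164. Of all 22215 probe sets, 35 had a larger difference on the higher side, and 44 had a larger one than that of 204059_s_at. Both probe sets report the same transcript and so are not separate replicates. The last one, 211204_at, was dim, with an intensity of 22.8 and 23.8 with celastrol and 22.8 and 22.2 with DMSO, below the median intensity of the arrays (28.8 to 29.4). It showed no separation of the groups, with a difference of 0.05 (95% interval -0.06 to 0.16, limma adjusted p = 0.622).

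With 1 of the 4 arrays left out in turn, the ME1 difference ran from 1.05 to 1.25 on 204059_s_at and from 1.06 to 1.47 on 204058_at. DMSO replicate 3 held ME1 at an intensity of 93.6 on 204059_s_at and 35.1 on 204058_at, 5.86-fold and 4.04-fold below the mean of DMSO replicates 1 and 2 on the log2(intensity + 1) scale. With that array included among the DMSO samples the differences were 2.00 (SE 0.966) and 1.94 (SE 0.774), with limma adjusted p = 0.876 for both, so the array raises the difference by over 1.5 times and its spread with it.

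IDH1, the cytosolic isocitrate dehydrogenase, makes NADPH as it forms 2-oxoglutarate. Its intensity was 1533 and 1488 with celastrol and 1461 and 1505 with DMSO. The groups overlapped. The difference was 0.03 (SE 0.0309, 95% interval -0.07 to 0.13, limma adjusted p = 0.672), an interval that reaches from 0.951-fold to 1.09-fold. On DMSO replicate 3 IDH1 stood at 362, which is 4.09-fold below the other DMSO arrays, and with that array included the difference was 0.70 (SE 0.768). Leaving out 1 of the 4 arrays gave 0.0049 to 0.048.

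In the oxidative branch, PGLS hydrolyses 6-phosphogluconolactone and PGD, the phosphogluconate dehydrogenase, releases NADPH and ribulose 5-phosphate. The PGLS probe set 218387_s_at had an intensity of 462 and 458 with celastrol and of 438 and 461 with DMSO. These groups overlapped, with a difference of 0.03 (95% interval -0.08 to 0.15, limma adjusted p = 0.660). Its second probe set, 218388_at, was identical on 3 of the 4 arrays, at 338, and lower on celastrol replicate 2, at 294. The difference there was -0.10 (95% interval -0.37 to 0.17, limma adjusted p = 0.622), so these PGLS probe sets differ in sign and both intervals include 0. DMSO replicate 3 stood higher than both groups on each, at 501 and 402, and including it gave -0.020 and -0.18. Without celastrol replicate 2 the difference of 218388_at was exactly 0, and without celastrol replicate 1 it was -0.20.

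Probe set 201118_at, annotated to UGDH and PGD, had an intensity of 747 and 685 with celastrol and of 504 and 513 with DMSO. Both celastrol arrays were above both DMSO arrays and also above DMSO replicate 3, at 594. The difference was 0.49 (SE 0.0559, 95% interval 0.31 to 0.67), with a limma adjusted p of 0.138 and 230 probe sets with a larger one on the higher side. It ran from 0.43 to 0.55 with 1 of the 4 arrays left out and was 0.42 with DMSO replicate 3 included. The annotation's representative sequence for this probe set is a PGD transcript in RefSeq. UGDH, which makes UDP-glucuronate, has a probe set of its own, 203343_at, at 286 and 270 with celastrol and 131 and 171 with DMSO. That is a difference of 0.89 (SE 0.162, limma adjusted p = 0.205). Since both the shared probe set and that of UGDH were higher, the part of PGD in the shared value was not tested.

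In the non-oxidative branch, transketolase (TKT) moves 2-carbon units between sugars and transaldolase (TALDO1) 3-carbon units. TKT had an intensity of 1725 and 1782 with celastrol against 1627 and 1611 with DMSO on 208700_s_at, and of 1329 and 1297 against 1192 and 1226 on 208699_x_at. On each probe set the celastrol arrays were the higher ones, by a small margin. The differences were 0.12 on both, with SE 0.0272 and 0.0289, 95% intervals of 0.03 to 0.20 and 0.03 to 0.21, and limma adjusted p of 0.278 and 0.286. DMSO replicate 3 lay between the groups, at 1691 and 1276, and with it both differences were 0.09. With quantile normalization the groups of 208700_s_at overlapped and its difference was 0.09.

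TALDO1 had an intensity of 3006 and 3284 with celastrol and of 2778 and 2920 with DMSO. The lower celastrol array was only just above the higher DMSO array. The difference of 0.14 (SE 0.0630, 95% interval -0.06 to 0.34, limma adjusted p = 0.553) ran from 0.08 to 0.21 with 1 of the 4 arrays left out, and the interval ends at 1.27-fold. Without celastrol replicate 2 it was 0.08, and DMSO replicate 3 stood lower, at 2271, which raised the difference to 0.25 (SE 0.137) when included.

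RPIA and RPE act on ribulose 5-phosphate, RPIA as the isomerase that gives ribose 5-phosphate and RPE as the epimerase that gives xylulose 5-phosphate. RPIA had an intensity of 50.8 and 43.3 with celastrol and of 49.6 and 55.3 with DMSO. The groups overlapped, with a difference of -0.16 (SE 0.115, 95% interval -0.52 to 0.21, limma adjusted p = 0.622). Leaving out 1 array moved it by about 1.5 times or more in each of the 4 cases. It was -0.27 without celastrol replicate 1, -0.043 without celastrol replicate 2 and -0.078 without DMSO replicate 2. Without DMSO replicate 1 it was -0.23. The groups did not overlap in the cases without celastrol replicate 1 or DMSO replicate 1. DMSO replicate 3 was the exception, at 235, which is 4.42-fold above the other DMSO arrays, and including it made the difference -0.87 (SE 0.816). RPE on 221770_at gave 113.5 on 3 of the 4 arrays and 111.5 on celastrol replicate 2. That left a difference of -0.013 (95% interval -0.080 to 0.055, limma adjusted p = 0.764), which was exactly 0 without celastrol replicate 2, -0.025 without celastrol replicate 1 and -0.037 with DMSO replicate 3 included. The probe set that RPE shares with RPEL1, 216574_s_at, was near the array median at 26.2 and 27.4 with celastrol and 27.4 on both DMSO arrays, a difference of -0.033 (limma adjusted p = 0.632). Identical values between arrays are common in this table: in pairs of the 4 arrays 17.1% to 19.3% of probe sets were tied.

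**Figure D2:**
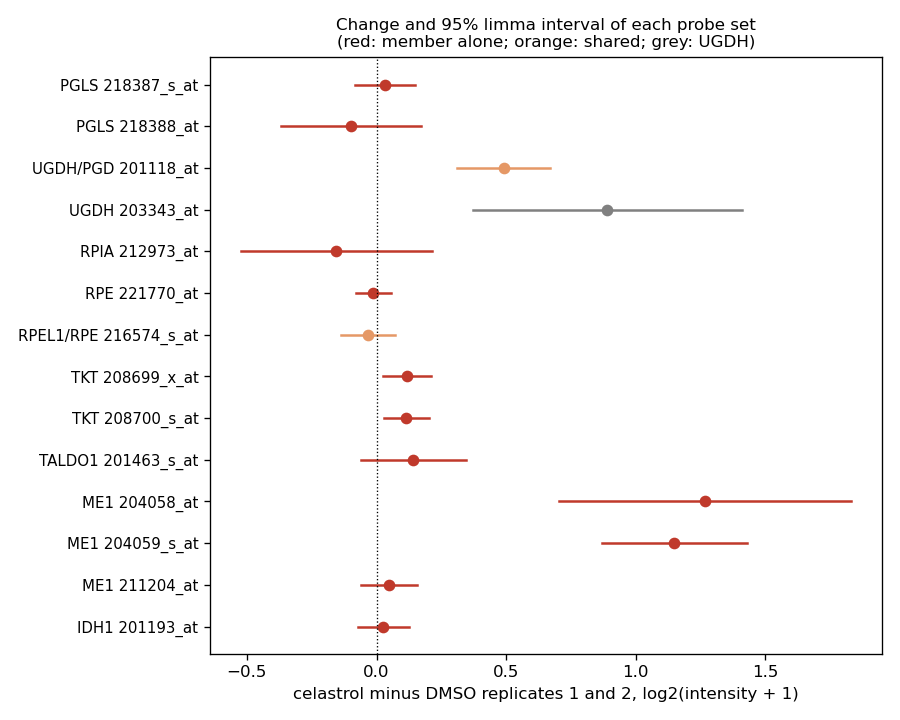
Difference between celastrol and DMSO replicates 1 and 2 for each probe set on the log2(intensity + 1) scale, with the 95% interval of limma (2 arrays a group). The intervals of 2 ME1 probe sets, both TKT probe sets, the UGDH and PGD probe set and that of UGDH lie above 0; the other 8 include 0.

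By role, the 5 probe sets naming a non-oxidative enzyme alone had differences from -0.16 to 0.14 with a median of 0.12. Their groups did not overlap, on the higher side, for 3 of them, beside 14.5% of all probe sets. Those 3 were both TKT probe sets and that of TALDO1, while RPIA and RPE had overlapping groups. The 4 probe sets of ME1 and IDH1 ranged from 0.03 to 1.27, with 2 of 4 separated on the higher side, both of ME1. None of the 11 was separated on the lower side, beside 17.6% of all. The groups overlapped on both PGLS probe sets. Outside ME1 the differences of probe sets naming 1 member lay within 0.16 of 0.

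The pattern of ME1 over the 4 arrays was nearest, by Euclidean distance of levels centred on DMSO replicates 1 and 2 to probe set 204058_at, to SQSTM1 (distance 0.150), TXNRD1 (0.215), TNFRSF21 (0.235), DNAJB9 (0.246) and JMJD6 (0.260), among 12158 genes that are not members. SQSTM1 encodes the autophagy receptor p62 and TXNRD1 the cytosolic thioredoxin reductase, which uses NADPH. TNFRSF21 is a death receptor, DNAJB9 a cochaperone of the endoplasmic reticulum and JMJD6 an oxygenase. Their differences were 1.26, 1.25, 1.19, 1.25 and 1.08. These are likenesses over 4 arrays, with no test.

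Related genes were then counted from lists, each gene by its brightest probe set naming it alone. Of 17 measured among 23 other genes of pentose phosphate metabolism and NADPH supply, 0 passed the adjusted threshold, against 0.0164% of all genes. On the higher side 2 had an unadjusted limma p under 0.05, against 6.3% of all genes, and on the lower side 1, against 8.8%. The list's median difference was -0.049, against 0.00 over all 12165 genes. GLUD1, the mitochondrial glutamate dehydrogenase, had the smallest p, at 9.17 and 9.19 with celastrol and 9.86 and 9.88 with DMSO. Its difference was -0.69 (SE 0.0216, limma adjusted p = 0.0622). NADK, the cytosolic kinase that makes NADP from NAD, stood 0.46 higher (SE 0.0919, limma adjusted p = 0.226), and MTHFD2, a mitochondrial folate dehydrogenase, 0.39 higher (SE 0.103, limma adjusted p = 0.314). Among genes picked after their values were seen, the mitochondrial relatives of ME1 and IDH1 had smaller differences than ME1, with ME2 at 0.21 (limma adjusted p = 0.380) and IDH2 at -0.22 (limma adjusted p = 0.450). The gap between ME1 and ME2 was not tested. With DMSO replicate 3 included GLUD1 was at -0.73, NADK at 0.53 and IDH2 at -0.33, while MTHFD2 was at 0.21 and ME2, with its sign turned, at -0.15.

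Upper glycolysis shares its sugar phosphates with the non-oxidative branch. Of 11 measured enzymes, 0 had an unadjusted limma p under 0.05, against 6.3% of all genes higher and 8.8% lower, 0 passed after adjustment, and the median difference was 0.00. Both celastrol arrays lay below both DMSO arrays for 2 of 11, against 19.4% of all genes, so with so few genes these counts are near the background. The smallest p belonged to HK1 at -0.047, HK2 at 0.067 and PFKP at -0.032. Of 7 measured enzymes of the TCA cycle and related NAD-linked steps, 0 likewise had an unadjusted p under 0.05 and 0 passed, and 2 lay lower without overlap, which is near the same shares. The median was -0.084, with OGDH at -0.25, CS at -0.084 and IDH3G at -0.067. With DMSO replicate 3 included these TCA cycle genes turned sign, to 0.060, 0.074 and 0.021 in that order, and PFKP moved to -0.49. OGDH is a subunit of the 2-oxoglutarate dehydrogenase complex, CS is citrate synthase and IDH3G a subunit of the NAD-linked isocitrate dehydrogenase.

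Most of the measured enzymes on a list of NADPH consumers stood higher with celastrol. That list was chosen with earlier results of these data known, so its counts are a description only. Of 16, 11 had an unadjusted limma p under 0.05 on the higher side, against 6.3% of all genes. On the lower side 0 did, against 8.8%. Both celastrol arrays lay above both DMSO arrays for 11 as well, against 15% of all genes. AKR1B10, counted in both, was among the dimmest 40% of probe sets. The celastrol arrays were both lower for 1 of the 16, against 19.4% of all genes. The median difference was 0.28. None of the 16 passed after adjustment over all probe sets. CBR3, a carbonyl reductase, stood at 8.04 and 8.09 with celastrol and 5.60 and 5.71 with DMSO, a difference of 2.41 (SE 0.0498, limma adjusted p = 0.0622). TXNRD1 stood at 11.44 and 11.41 against 10.11 and 10.23 (SE 0.0534, limma adjusted p = 0.0654). AKR1C1, an aldo-keto reductase, stood at 7.59 and 7.36 against 5.72 and 5.78, a difference of 1.72 (SE 0.0985, limma adjusted p = 0.0853). When the dimmest 40% of probe sets were left out, these 3 passed on the higher side, against 0.569% of all genes kept, and GLUD1 passed on the lower side, against 0.47%. With DMSO replicate 3 included, and no filter, CBR3 stood 2.94 higher (SE 0.601), TXNRD1 1.82 (SE 0.639) and AKR1C1 1.90 (SE 0.220). The limma adjusted p was then 0.876, 0.876 and 0.820 in that order. DMSO replicate 3 lay below the mean of DMSO replicates 1 and 2 for each of these genes. In the fit without dim probe sets no member probe set passed, and the limma adjusted p of ME1 on 204059_s_at was 0.0605.

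**Figure D3:**
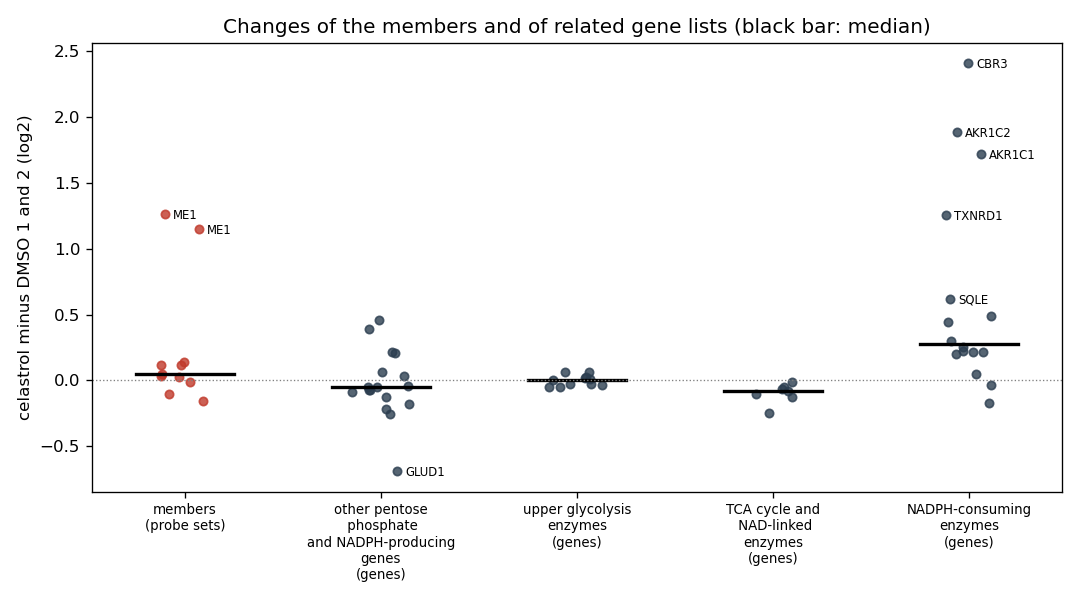
Difference between celastrol and DMSO replicates 1 and 2 (log2 scale) for the 11 member probe sets and for the genes of 4 related lists, with black bars at the medians. The 2 bright ME1 probe sets stand above the other members, glycolysis and TCA cycle genes lie close to 0, and the NADPH-consuming enzymes have a median of 0.28.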

How the data were processed

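The authors deposited a linear intensity for each probe set on each array. Per the submitters' processing notes the tool was RMA. Which version was run is not given in the sources used here. Groups follow the titles, since the description field of the DMSO samples also names celastrol. Each intensity was turned into log2(value + 1), and arrays were not normalized again. Probe sets were named through the 2016 platform annotation; its symbols, looked up by Entrez ID in RefSeq, changed in 0 cases. Celastrol replicates 1 and 2 and DMSO replicates 1 and 2 were compared with limma 3.58.1 in R 4.3.3 (lmFit, eBayes, two-sided, Benjamini-Hochberg over 22215 probe sets, threshold 0.05, no filter). An exact permutation test on 2 against 2 arrays cannot go below p = 0.333 and was not used. In simulated data of this fit (22215 probe sets, 200 changed, 10 draws, normal noise with no ties), 24.2% of changes of 0.5, 49.9% of 1 and 80.3% of 2 were recovered, and 1.64% of calls were false. The noise of each simulated probe set used its measured SD as the true SD, so these rates need not hold for the measured values. In the measured data 2 of 22215 probe sets passed. Measured values hold ties: 643 probe sets had no variance within either group. All members and the first 3 genes by p of each related list are named. Alternatives covered the arrays used, a dim filter, normalization, the pseudocount, the variance model, the replicate number as a block and each array left out. The members and lists were chosen with earlier results of these data known.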

Additional observations from a re-analysis of the deposited data

How the results depend on the processing

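Over all 22215 probe sets 2 passed (1 higher, 1 lower; 2932 had an unadjusted limma p under 0.05). The count was 0 on all 5 arrays, 121 with the dimmest 40% left out, 197 with quantile normalization (121 higher, 76 lower), 139 with median centring (86 higher, 53 lower), 43 with log2(value + 16), 0 with the replicate block and 0 to 0 with 1 array left out; the cause was not tested, except that leaving out an array or adding the block leaves fewer degrees of freedom. The number of members passing, 0 as planned, was 1 with quantile normalization and 1 with median centring, ME1 each time. Members with groups that did not overlap were 8 of 11 with median centring, all higher. In that setting 40.6% of all probe sets lay higher and 14.9% lower. Median centring subtracts 1 value from each array, so every difference moved by the same amount. The median difference over all probe sets went from 0.00 to 0.021. Such members were 7 to 9 with 1 array left out. The 9 came without celastrol replicate 1, with 6 higher and 3 lower. Beside them stood 26.7% and 30.8% of all probe sets, so the 3 lower are near the background. Without DMSO replicate 1 there were 6 higher and 1 lower, beside 27.7% and 30% of all probe sets. Without celastrol replicate 2 and without DMSO replicate 2 there were 7 higher and 0 lower each. Of all probe sets 28.6% and 28.8% then lay higher, and 30.1% and 29% lower. The members' median of 0.05 was 0.093 on all 5 arrays and 0.048 to 0.077 with 1 array left out. Signs turned for PGLS 218387_s_at, to -0.020 on all 5 arrays and within -0.0050 to 0.070 with 1 array left out, and for RPE 221770_at, to 0.027 with quantile normalization and 0.0082 with median centring. Of 143 values of single probe sets under 11 alternatives, 134 kept direction and side of the threshold, 3 were exactly 0, 4 turned sign and 2 newly passed. Direction could not turn under the dim filter, the other variance model or the replicate block, which leave each difference unchanged. No probe set of the array passed on all 5 arrays, with the block or with any 1 array left out. The side of the threshold is therefore no measure of stability in those settings. Replicate numbers gave no sign of pairing: the replicate differences of the groups correlated at -0.0197 across probe sets. With the replicate block the ME1 difference on 204059_s_at kept its value, with a limma adjusted p of 0.351. Over all alternatives that p ran from 0.0310 to 0.876.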
